A study of Homo sapiens with 6 samples.

Results

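The genes of the heterogeneous nuclear ribonucleoproteins (hnRNPs) and of the serine/arginine-rich (SR) splicing factors were followed in PC9 cells under erlotinib and KDM5 manipulation. Members were all gene symbols in the 6 count tables that begin with HNRNP, or that are SRSF followed by a number, with pseudogenes left out. This gave 33 of 26195 symbols: 21 HNRNP genes that encode proteins, 10 SRSF genes, and 2 further symbols, the antisense RNA HNRNPU-AS1 and the readthrough HNRNPUL2-BSCL2. The rule uses symbols alone. HNRNPH2, SRSF8 and SRSF10 were not analysed here. PC9 is a human cell line from a lung adenocarcinoma that carries an activating mutation of EGFR, and single cells were profiled by Drop-seq, which counts unique molecular identifiers (UMIs) at the polyadenylated ends of transcripts.

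Each of the 6 conditions had 1 library. Untreated cells had neither virus nor drug, and scrambled cells carried a pLVTHM lentivirus with GFP and a control shRNA, and had no drug. The other 4 libraries had 2 µM erlotinib, an EGFR kinase inhibitor, for 1 day. One of them also had 6.25 µM CPI-455, which inhibits histone demethylases of the KDM5 family, for 4 days and no virus, and the others carried virus for KDM5A shRNA (pLVTHM), for KDM5A and KDM5B shRNA (a pLVTHM virus each), or for tagged KDM5A cDNA (pLenti with a CMV promoter and no GFP). Both drugs were dissolved in DMSO. CPI-455 cells are labelled as given erlotinib the day after seeding in CPI-455, which leaves the order of the drugs within the 4 days unclear. Erlotinib began 4, 5 and 6 days after transduction in these 3 libraries, in that order. No library had erlotinib alone, so erlotinib and the KDM5 manipulations as a whole cannot be told apart. Transduced cells were moved to medium with more serum than the others, so virus and serum cannot be told apart either.

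In the nucleus, hnRNPs coat new transcripts and often hold the splicing machinery away from an exon, whereas SR proteins bind exons through RNA recognition motifs and recruit that machinery through a tail of arginine and serine. Many of these genes limit their own mRNA by splicing in an exon with a premature stop, which sends the transcript to nonsense-mediated decay. The counts here come from transcript ends and do not tell such isoforms apart. In tumours, lung adenocarcinoma among them, several of these genes are known to be highly expressed, SRSF1 and HNRNPA2B1 for example.

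The 6 libraries held between 131 and 1166 kept cells (500 UMIs or more, with mitochondrial genes at 20% or less) and between 590091 and 3956647 UMIs. Mitochondrial genes took 3.98% and 5.03% of UMIs in the libraries without erlotinib and between 7.04% and 9.18% in the 4 with it. No pair of libraries shared more than 1 kept barcode. The 6 epithelial markers examined were detected in all libraries, with KRT18 between 1525 and 2773 CPM. CPM is a gene's UMI count scaled to a library of 1000000 UMIs. Of 4 leukocyte markers 3 had no UMI, and the 3 endothelial markers summed to between 2.27 and 12.4 CPM and the 4 fibroblast markers to at most 8.27. KDM5A stood at 56.4 CPM with KDM5A shRNA, 164 with KDM5A cDNA and 41.3 in the library labelled KDM5A and KDM5B shRNA, against 81.9 in scrambled cells. KDM5B stood at 138 in the library labelled KDM5A and KDM5B shRNA and at 46.4 in scrambled cells, which had no erlotinib. Without a library of erlotinib alone, a knockdown of KDM5B cannot be judged from this. KDM5B was also above both libraries without erlotinib in the other 3, at 151 with KDM5A shRNA, 102 with CPI-455 and 94.9 with KDM5A cDNA, against 60.4 in untreated cells. The library is called the labelled double-shRNA library below. Directions drawn from it are those of a library in which KDM5B was not below its scrambled level.

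The splicing factors as a group held a smaller share of the transcripts in every erlotinib library than in either library without the drug. The 21 HNRNP genes summed to 9089 CPM in untreated cells (exact 95% counting interval 8995 to 9183) and 10562 in scrambled cells. They summed to 6162 with CPI-455 (5998 to 6329), 5218 with KDM5A shRNA (5107 to 5331), 5076 in the labelled double-shRNA library (4913 to 5242) and 6360.0 with KDM5A cDNA (6158 to 6567). All 4 erlotinib sums therefore lay below both others. The 10 SRSF genes summed to 2124 CPM in untreated and 2447 in scrambled cells, against 1647 with CPI-455, 1575 with KDM5A shRNA, 1459 in the labelled double-shRNA library and 1583 with KDM5A cDNA. These levels are shares of a library's UMIs, and each molecule is counted once whatever its length. Summed UMIs of the G2/M genes (51 measured) were 10585 and 7316 CPM without erlotinib and between 1330 and 2052 with it, and those of 41 S phase genes were 4000.1 and 5164 against 485 to 599.

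**Figure D1:**
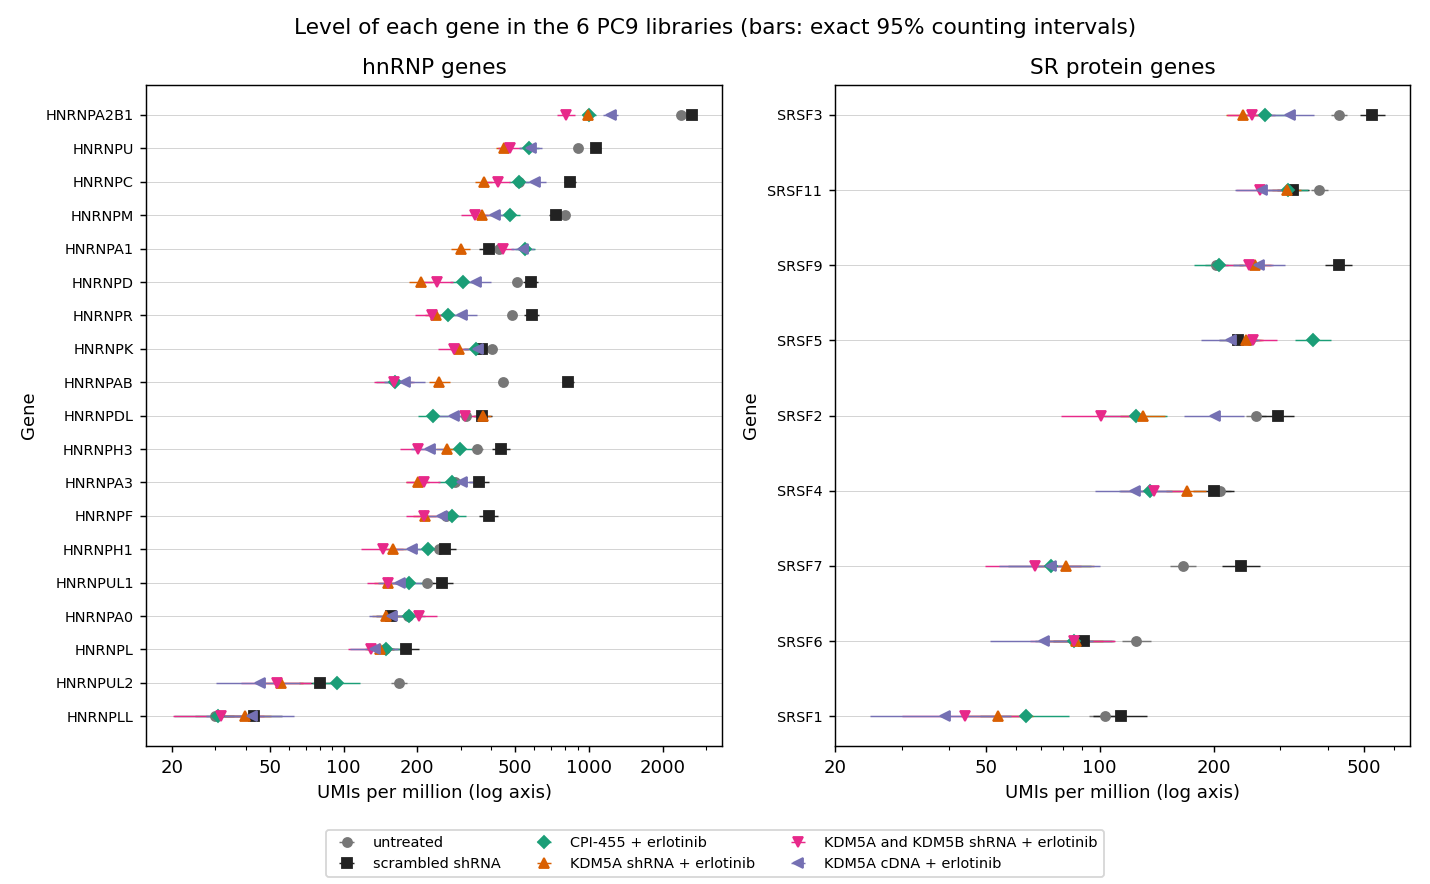
CPM (log axis) of the HNRNP genes (left) and SRSF genes (right) with at least 200 UMIs over all libraries, 1 point per library, with exact 95% counting intervals as bars. For HNRNPA2B1 the 4 erlotinib libraries sit between 807 and 1229 and the libraries without it at 2379 and 2642, while for SRSF5 and HNRNPA1 the groups overlap.

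Erlotinib was the comparison with more than 1 library on each side, 4 against 2. In edgeR's quasi-likelihood test over 10445 genes, 10 of the 29 members tested fell and 0 rose at a Benjamini-Hochberg adjusted p under 0.05. Over all genes tested, 13.5% were called lower and 10% higher. By unadjusted p under 0.05 the members counted 14 lower and 0 higher, where 2108 of all 10445 genes were lower and 1861 higher. DESeq2 and limma-voom also called 0 members higher. The median log2 fold of the 29 members was -0.47, against 0.01 over all genes tested, and 24 of the 29 lay below 0. In 17 members all 4 erlotinib libraries lay below both others, which held for 26.7% of all genes, and in 0 members all 4 lay above both, which held for 18.6%. HNRNPA1L2, HNRNPCL1, HNRNPUL2-BSCL2 and SRSF12, with 56, 13, 2 and 1 UMIs over all libraries, were too low to test. The p-values measure the difference against the spread between libraries of unlike KDM5 manipulation, with 1 culture each as far as the labels say.

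HNRNPA2B1, an A/B-type hnRNP that binds nascent transcripts and takes part in splicing and RNA sorting, was the most abundant member in each library. It held 21.2% of all UMIs of the protein-coding members in untreated and 20.3% in scrambled cells, against 12.4% to 15.5% with erlotinib. Its level was 2379 CPM in untreated and 2642 in scrambled cells, and 1005 with CPI-455, 993 with KDM5A shRNA, 807 in the labelled double-shRNA library and 1229 with KDM5A cDNA. The groups did not overlap, and the KDM5A cDNA library was the highest of the 4. The fitted log2 fold was -1.28 (SE 0.21; adjusted p = 0.002 by edgeR).

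HNRNPAB, a close relative of HNRNPD that binds single-stranded DNA and RNA, had the largest fitted decrease among the members. It stood at 447 CPM in untreated and 824 in scrambled cells, and at 161 with CPI-455, 246 with KDM5A shRNA, 161 in the labelled double-shRNA library and 178 with KDM5A cDNA. The controls themselves differed by more than the erlotinib libraries did, and the groups did not overlap. The log2 fold was -1.73 (SE 0.28; adjusted p = 0.00228 by edgeR). HNRNPD, or AUF1, which binds AU-rich elements and affects mRNA turnover, fell by 0.95 in log2 (SE 0.23; adjusted p = 0.0162 by edgeR), from 508 and 579 to between 206 and 347 CPM.

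Of the other abundant hnRNPs, HNRNPU, a nuclear scaffold protein that binds RNA and chromatin, stood at 899.8 and 1065 CPM without erlotinib. With it the levels were 572 (CPI-455), 450.4 (KDM5A shRNA), 475 (labelled double-shRNA library) and 579.6 (KDM5A cDNA), a log2 fold of -0.89 (SE 0.20; adjusted p = 0.0109 by edgeR). HNRNPM, a regulator of alternative splicing in epithelial and mesenchymal cells, stood at 799.9 and 737 without the drug and between 343 and 476 with it, at -0.90 (SE 0.19; adjusted p = 0.00883 by edgeR). HNRNPR, a relative of SYNCRIP, stood at 488 and 584 against 229 to 303, at -1.01 (SE 0.20; adjusted p = 0.00646 by edgeR). All 3 were lower in each erlotinib library than in either control.

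Among SR proteins, 4 of 9 tested fell, where 13.5% of all genes did. SRSF7, which is closely related to SRSF3 and carries a zinc knuckle, stood at 166 CPM in untreated and 236 in scrambled cells. Its 4 erlotinib values were close together, at 74.4 with CPI-455, 81.4 with KDM5A shRNA, 67.5 in the labelled double-shRNA library and 74.6 with KDM5A cDNA, and the log2 fold was -1.39 (SE 0.22; adjusted p = 0.00174 by edgeR). SRSF1, the prototype SR protein and a known oncoprotein, stood at 104 and 114 against 64.1, 53.9, 44.1 and 39.0 in the same order, at -1.06 (SE 0.23; adjusted p = 0.01 by edgeR). The last of these levels rests on 23 UMIs (95% counting interval 24.7 to 58.5 CPM).

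SRSF3, a small SR protein that also links mRNA to nuclear export, was the most abundant SRSF gene on average. It stood at 428 and 525 CPM without erlotinib and at 274 (CPI-455), 239 (KDM5A shRNA), 252 (labelled double-shRNA library) and 319 (KDM5A cDNA) with it, a log2 fold of -0.78 (SE 0.21; adjusted p = 0.0217 by edgeR). SRSF2, or SC35, a marker of nuclear speckles, stood at 259 and 296 against 125, 130.3, 101 and 202, at -0.96 (SE 0.26; adjusted p = 0.025 by edgeR), and its KDM5A cDNA value was the highest of the 4. For both genes the groups did not overlap. The calls of SRSF1, SRSF2 and SRSF3 ended when each cell was thinned to 1000 UMIs, with log2 folds of -1.04, -0.76 and -0.51. Those of HNRNPU, HNRNPD, SRSF2 and SRSF3 ended without the scrambled library, at -0.74, -0.83, -0.85 and -0.61, and those of HNRNPD, SRSF2 and SRSF3 without the labelled double-shRNA library, at -0.90, -0.85 and -0.76. That of SRSF2 also ended in transduced libraries only, at -1.05, and without the CPI-455 library, at -0.90.

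**Figure D2:**
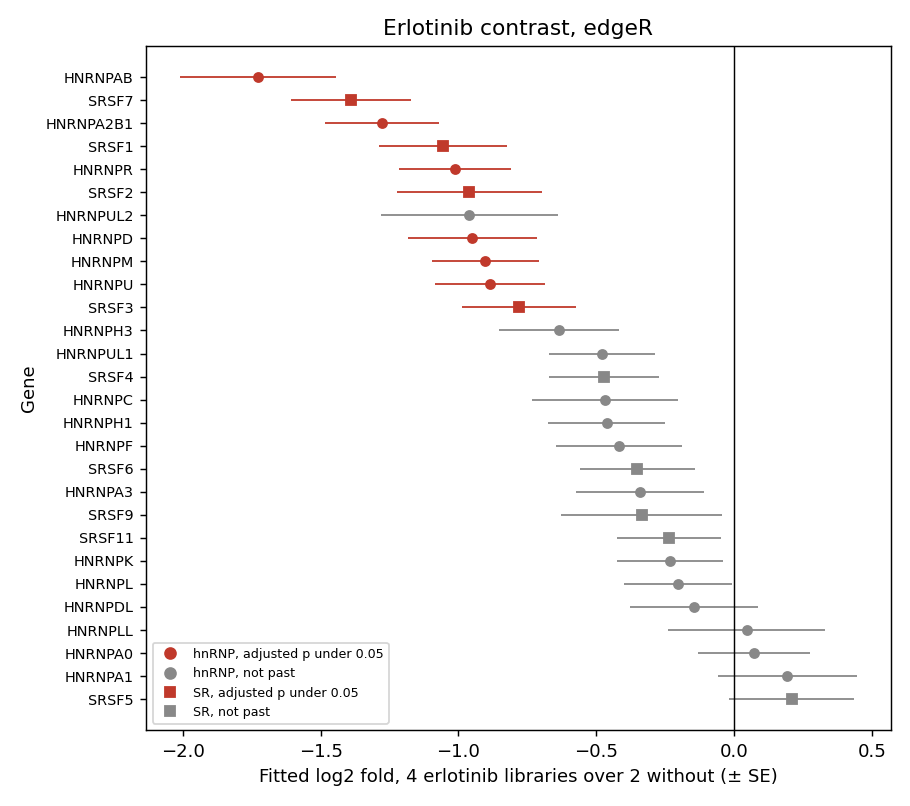
Fitted log2 fold of the 28 protein-coding members tested, 4 erlotinib libraries over 2 without, with the edgeR standard error as bars, circles for HNRNP and squares for SRSF genes, and red for an adjusted p under 0.05. The 10 called genes run from -1.73 (HNRNPAB) to -0.78 (SRSF3), and 4 genes lie above 0, none of them called.

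The other members did not pass the test. HNRNPUL2, a relative of HNRNPU, had a log2 fold of -0.96 (SE 0.32; adjusted p = 0.0546 by edgeR) with overlapping groups, since untreated cells stood at 169 CPM and scrambled cells at 80.3, below the 93.8 with CPI-455. It was called without the scrambled library (-1.38), without the CPI-455 library (-1.20) and with no filter on low counts (-1.10), and stood at -0.38 without the untreated library. HNRNPH3, which binds runs of G as do HNRNPH1 and HNRNPF, stood at 350.0 and 438 against 201 to 299 CPM, a log2 fold of -0.63 (SE 0.22; adjusted p = 0.0577 by edgeR), and passed in 5 of the 18 alternatives. HNRNPUL1, SRSF4 and HNRNPH1 had log2 folds of -0.48 (SE 0.19), -0.47 (SE 0.20) and -0.46 (SE 0.21), with all 4 erlotinib libraries below both controls for each.

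HNRNPC, SRSF11 and SRSF9 are abundant members that also missed the threshold. HNRNPC stood at 518 CPM in untreated and 838 in scrambled cells, and at 518 with CPI-455, 373 with KDM5A shRNA, 427 in the labelled double-shRNA library and 603 with KDM5A cDNA, a log2 fold of -0.47 (SE 0.26; adjusted p = 0.217 by edgeR). Its groups overlapped, with KDM5A cDNA above untreated cells, and the log2 fold was -0.06 without the scrambled library and -0.82 without the untreated library. SRSF11, an SR protein that binds the U2 auxiliary factor, stood at 380.4 and 324 without the drug and at 315, 313, 266 and 268 with it in the same order, at -0.24 (SE 0.19; adjusted p = 0.39 by edgeR), and its groups did not overlap. SRSF9 was at -0.34 (SE 0.29; adjusted p = 0.427 by edgeR). HNRNPF, SRSF6, HNRNPA3, HNRNPK, HNRNPL and HNRNPDL ranged from -0.42 to -0.14. HNRNPF moved from -0.42 to -0.08 without the scrambled library and to -0.73 without the untreated library. In SRSF6 and HNRNPK all 4 erlotinib libraries lay below both controls.

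The fitted log2 fold was above 0 in 4 protein-coding members, and 0 of these passed the test. SRSF5, one of the SR proteins with paired RNA recognition motifs, stood at 249.96 CPM in untreated and 233 in scrambled cells, and at 366 with CPI-455, 244 with KDM5A shRNA, 255 in the labelled double-shRNA library and 222 with KDM5A cDNA. The CPI-455 library alone was above the others, and the log2 fold was 0.21 (SE 0.23; adjusted p = 0.529 by edgeR). HNRNPA1, which competes with SRSF1 over splice sites, stood at 431 and 391 against 550.5 (CPI-455), 300.1 (KDM5A shRNA), 446 (labelled double-shRNA library) and 537 (KDM5A cDNA), a log2 fold of 0.19 (SE 0.25; adjusted p = 0.606 by edgeR). The groups overlapped, with the KDM5A shRNA library lowest. HNRNPA0 and HNRNPLL stood at 0.07 (SE 0.20) and 0.05 (SE 0.29), with edgeR adjusted p of 0.82 and 0.923.

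HNRNPA1 and some relatives have many intronless copies in the genome, and short reads can be split between a gene and its copies. UMIs assigned to 68 HNRNPA1 pseudogene symbols made up 13.6% of the sum of gene and copies in untreated and 12.6% in scrambled cells, 10.5% with KDM5A shRNA, 17.3% in the labelled double-shRNA library, 22.5% with CPI-455 and 21.5% with KDM5A cDNA. For HNRNPC the corresponding shares were 4.52%, 5.82%, 4.03%, 7.46%, 9.76% and 12.3%. Intronless copies of all genes took 1.02%, 1.38%, 1.32%, 2.49%, 2.90% and 3.42% of a library's UMIs, in the same order of libraries. The libraries with the higher HNRNPA1 and HNRNPC levels under erlotinib were thus also those with the larger share in copies. Levels of HNRNPA1, HNRNPA3 and HNRNPC are uncertain for this reason. With the copies' UMIs added to the gene, 10 members were again lower and 0 higher, and the 10 were the same genes.

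Ratios between related genes within 1 library do not depend on how the library is scaled. Of 10 such ratios, chosen after values were seen, 4 had all erlotinib libraries on one side of both others and 6 did not. The share over ratios of other genes was not taken. By level, all 4 erlotinib libraries lay below both others in 26.7% of all genes and above both in 18.6%. HNRNPA2B1 had 5.52 UMIs for each UMI of HNRNPA1 in untreated cells (95% counting interval 5.25 to 5.82) and 6.76 in scrambled cells (6.15 to 7.43). The ratio was 1.83 with CPI-455, 3.31 with KDM5A shRNA, 1.81 in the labelled double-shRNA library and 2.29 with KDM5A cDNA, below both controls in each, which restates that HNRNPA2B1 fell and HNRNPA1 was not called. SRSF7 over SRSF3 was 0.388 and 0.45 without erlotinib and 0.272, 0.340, 0.268 and 0.234 with it, in the same order. For KDM5A shRNA the counting interval of that ratio, 0.277 to 0.416, overlapped those of untreated cells, 0.354 to 0.424, and scrambled cells, 0.392 to 0.516. Those with CPI-455, 0.203 to 0.359, and in the labelled double-shRNA library, 0.191 to 0.369, overlapped that of untreated cells. The interval with KDM5A cDNA, 0.165 to 0.326, overlapped neither. SRSF5 over SRSF4 was 1.20 and 1.16 without the drug and 2.69, 1.44, 1.83 and 1.79 with it. Its interval with KDM5A shRNA, 1.23 to 1.69, overlapped those of untreated cells, 1.10 to 1.32, and scrambled cells, 0.981 to 1.38, and that with KDM5A cDNA, 1.34 to 2.42, overlapped that of scrambled cells. HNRNPU over HNRNPUL1 was 4.12 and 4.24 against 3.11, 2.96, 3.14 and 3.42, and its KDM5A cDNA interval, 2.73 to 4.32, included both values without the drug. Its interval in the labelled double-shRNA library, 2.52 to 3.92, overlapped those of untreated cells, 3.82 to 4.44, and scrambled cells, 3.76 to 4.80. HNRNPAB over HNRNPD did not separate the groups, at 0.880 and 1.42 against 0.526, 1.19, 0.669 and 0.512. Neither did HNRNPA3 over HNRNPA1, at 0.664 and 0.913 against 0.475 to 0.668. The ratios SRSF1 over SRSF9, SRSF6 over SRSF4, HNRNPH1 over HNRNPF and HNRNPUL2 over HNRNPUL1 did not separate them either.

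**Figure D3:**
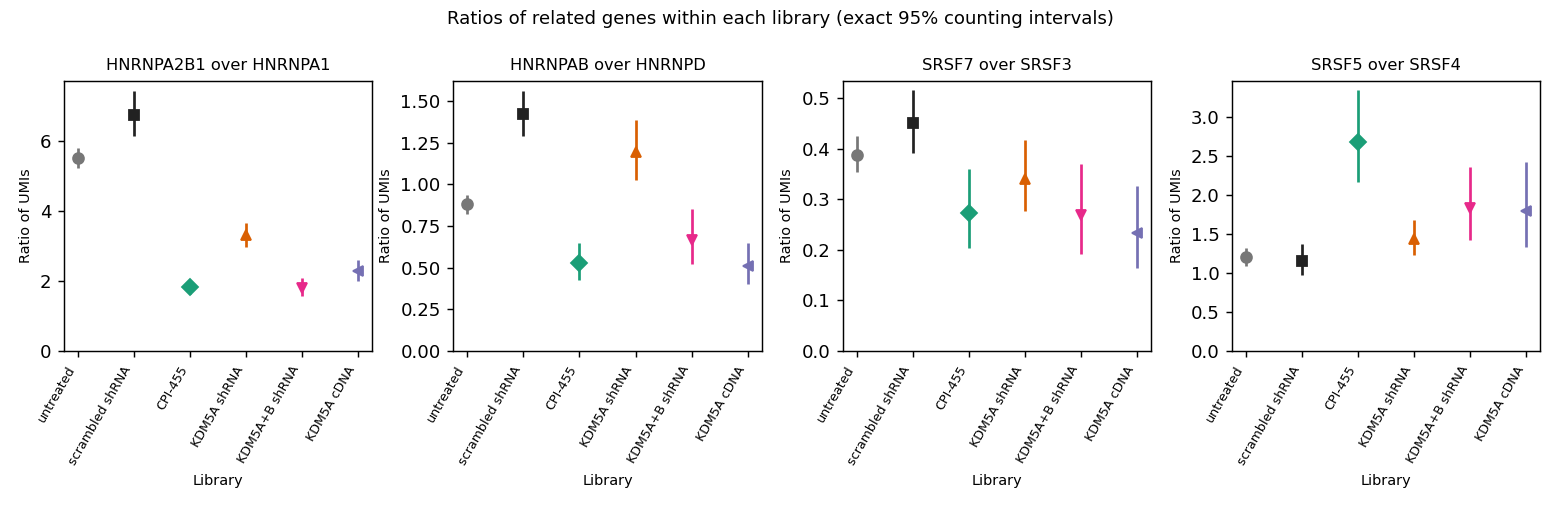
Ratio of the UMIs of related genes in each library, with exact 95% counting intervals. HNRNPA2B1 over HNRNPA1 runs from 1.81 to 3.31 in the erlotinib libraries against 5.52 and 6.76 without, and SRSF5 over SRSF4 is highest with CPI-455, at 2.69.

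The decrease of the group was seen over the range of cells. With each cell thinned to 1000 UMIs, the median cell held 11 UMIs from protein-coding members in the untreated library (822 cells, quartiles 8 and 13) and 13 in the scrambled library (222 cells, 10 and 15). It held 7 in each of the 4 erlotinib libraries, with lower quartiles of 5 and upper quartiles between 8 and 10. The 90th percentile was between 10.7 and 13 UMIs with erlotinib, against 16 and 18.9 without. Cells under 1000 UMIs, 344 of 1166 in the untreated library, are left out of these values.

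**Figure D4:**
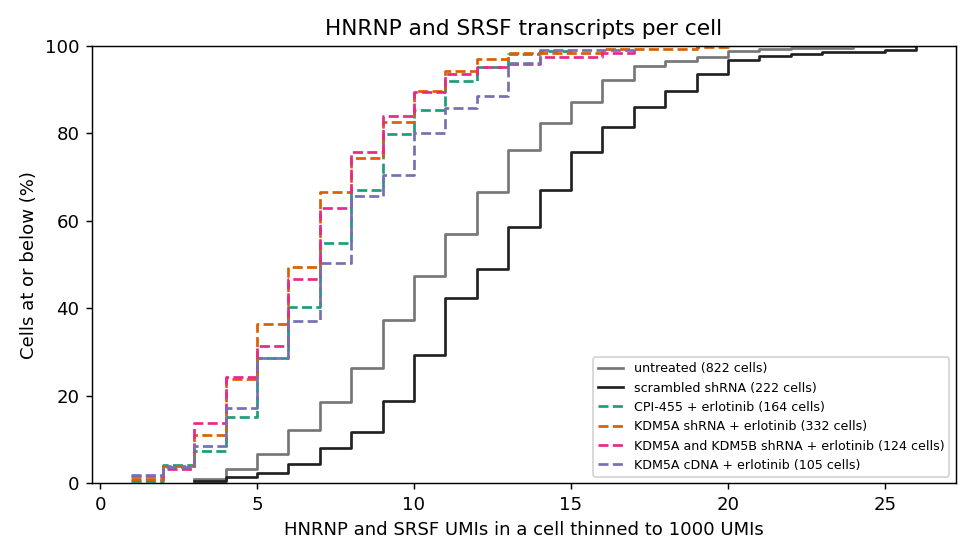
Share of cells (vertical axis, %) with at most the given number of HNRNP and SRSF UMIs (horizontal axis) after thinning each cell to 1000 UMIs, 1 line per library. The 4 erlotinib libraries (dashed) lie to the left of the untreated and scrambled libraries (solid), with medians of 7 against 11 and 13.

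Cells were also set side by side by whether they held a UMI of the G2/M list, which contains no member. In the untreated library, 770 of the 822 thinned cells held one and 52 did not. Cells with one had 1.17 times the HNRNP UMIs (95% counting interval 1.06 to 1.30) and 1.32 times the SRSF UMIs (1.06 to 1.66) of cells without. Their median depth before thinning was 2169.5 UMIs against 1751, and 62 cells with a single G2/M UMI lay at the limit. In the 4 erlotinib libraries the HNRNP ratio was between 1.00 and 1.15 and the SRSF ratio between 0.951 and 1.17, and each interval included 1. With at least 2 such UMIs asked for, the HNRNP interval lay above equality in the labelled double-shRNA library (log2 0.20 to 0.65) and with KDM5A cDNA (0.08 to 0.53). These cells come from 1 library each and are no replicates, so no test was run.

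Restricted to cells without a G2/M UMI, a choice made after the data were seen, the HNRNP sum was 7635 CPM in untreated cells and 5627 with CPI-455, 5128 with KDM5A shRNA, 4905 in the labelled double-shRNA library and 5719 with KDM5A cDNA. The ratios to untreated cells were 0.737 (95% counting interval 0.631 to 0.860), 0.672 (0.590 to 0.766), 0.642 (0.540 to 0.762) and 0.749 (0.625 to 0.895). The SRSF sum in such cells was 1635 in untreated cells against 1529, 1679, 1357 and 1344, with ratios of 0.936 (0.679 to 1.29), 1.03 (0.790 to 1.34), 0.830 (0.583 to 1.17) and 0.822 (0.556 to 1.20). The HNRNP sum of these cells was lower in each erlotinib library than in the untreated library. Each SRSF interval included 1 and spans a decrease as large as that of all cells in the libraries other than KDM5A shRNA. The cells were not matched by S phase UMIs, and whether the cell cycle accounts for the decrease was not tested. The scrambled library had 4 such cells and was not used here.

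HNRNPA2B1 was the most abundant member and HNRNPAB had the largest decrease. SRSF3 was the most abundant SRSF gene on average, and the fold of SRSF5 was above 0. Promoters are shown for these 4 members. Each runs from 250 bases before to 50 bases after the transcription start, 5′ to 3′ in the gene's direction, from RefSeq on build GRCh38.p14, whereas the count tables rest on GRCh37. The table matched 29 of 31 protein-coding members by symbol. Capitals mark CCAAT or its reverse ATTGG, bound by the factor NF-Y, and TATAAA or its reverse TTTATA, the TATA box.
HNRNPA2B1 promoter (chr7:26200697-26200996, - strand): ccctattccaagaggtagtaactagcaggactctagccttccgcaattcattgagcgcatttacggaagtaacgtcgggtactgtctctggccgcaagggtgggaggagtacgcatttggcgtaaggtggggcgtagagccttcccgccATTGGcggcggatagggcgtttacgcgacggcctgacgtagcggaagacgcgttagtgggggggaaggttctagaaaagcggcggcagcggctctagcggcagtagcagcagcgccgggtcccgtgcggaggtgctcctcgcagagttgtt
HNRNPAB promoter (chr5:178204283-178204582, + strand): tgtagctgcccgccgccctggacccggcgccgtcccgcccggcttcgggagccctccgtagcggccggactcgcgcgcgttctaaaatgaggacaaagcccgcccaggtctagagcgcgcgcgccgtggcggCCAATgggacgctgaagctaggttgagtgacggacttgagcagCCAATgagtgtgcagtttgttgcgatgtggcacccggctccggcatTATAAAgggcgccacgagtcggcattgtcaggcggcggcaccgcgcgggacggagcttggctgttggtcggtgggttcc
SRSF3 promoter (chr6:36594112-36594411, + strand): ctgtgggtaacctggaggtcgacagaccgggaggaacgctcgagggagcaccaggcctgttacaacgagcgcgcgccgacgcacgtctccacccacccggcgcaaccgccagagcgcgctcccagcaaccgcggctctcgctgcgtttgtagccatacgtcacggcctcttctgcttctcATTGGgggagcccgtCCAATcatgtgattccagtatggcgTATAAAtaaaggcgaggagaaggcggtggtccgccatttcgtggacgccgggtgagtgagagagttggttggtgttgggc
SRSF5 promoter (chr14:69766892-69767191, + strand): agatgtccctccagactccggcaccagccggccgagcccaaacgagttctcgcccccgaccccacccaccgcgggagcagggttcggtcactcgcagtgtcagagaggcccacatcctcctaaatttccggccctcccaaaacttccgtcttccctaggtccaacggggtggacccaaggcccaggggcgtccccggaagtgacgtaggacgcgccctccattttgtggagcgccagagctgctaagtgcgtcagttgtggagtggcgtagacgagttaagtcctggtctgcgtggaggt

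HNRNPAB and SRSF3 each hold 2 CCAAT-type matches and 1 TATA match, HNRNPA2B1 holds 1 CCAAT-type match, and SRSF5 holds neither. Over the 42 promoter windows of members (some genes have several starts), CCAAT was found on either strand in 20, or 47.6%, against 34.6% of all 35116 windows. It was in 5 of 10 windows of the genes that fell (SRSF2 had no window) and in 15 of 32 of the others. TATAAA was in 6 of the 42, or 14.3%, against 11.5% of all windows, with 4 of 10 among the genes that fell (HNRNPAB, HNRNPD, SRSF3 and SRSF7) and 2 of 32 among the others. The E-box CACGTG was in 7, or 16.7%, against 7.26%. The ETS motif CCGGAAG was in 5, or 11.9%, against 10.3%, and an E2F motif (TTTCCCGC or TTTGGCGC) was in 2, or 4.76%, against 2.27%, with 0 of 10 among the genes that fell. Each motif was searched on both strands, and a match describes the letters of the window only.

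By start sites on the same build, 6 members had a measured gene starting within 1000 bases upstream on the opposite strand. HNRNPA2B1 and CBX3, which encodes a heterochromatin protein, start 697 bases apart. CBX3 stood at 1223 and 778 CPM without erlotinib and at 406 (CPI-455), 389.6 (KDM5A shRNA), 419 (labelled double-shRNA library) and 415 (KDM5A cDNA), a log2 fold of -1.25 (SE 0.20; adjusted p = 0.00208 by edgeR) beside -1.28 for HNRNPA2B1. The other pairs had less similar values. RMI1 fell by 1.51 (SE 0.36; adjusted p = 0.0145 by edgeR) beside -0.23 for HNRNPK, and ENOPH1 fell by 1.17 (SE 0.35; adjusted p = 0.0357 by edgeR) beside -0.14 for HNRNPDL. LRRC40 stood at -1.29 (SE 0.49; adjusted p = 0.0788 by edgeR) beside -0.24 for SRSF11, TTC9C at 0.22 (SE 0.27) beside -0.96 for HNRNPUL2 and DYNLL1 at 0.10 (SE 0.28) beside -0.34 for SRSF9.

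Pairs of libraries were compared with 1 library each and no test, and each erlotinib library differs from its control by erlotinib and by its KDM5 manipulation. Ratios have exact 95% counting intervals, and members were counted when 1.5-fold or more apart, over genes with at least 50 UMIs in the pair. The scrambled library against the untreated library had 4 members higher and 1 lower of 29, where 9.67% of all genes were higher and 18.6% lower, and the median log2 ratio was 0.20 against -0.08 over all genes. The members higher in scrambled cells were SRSF9, a short relative of SRSF1, at a ratio of 2.10 (1.88 to 2.35), HNRNPAB at 1.84 (1.70 to 1.99), HNRNPC, which binds runs of U, at 1.62 (1.501 to 1.74) and HNRNPU-AS1 at 1.65 (0.994 to 2.69). HNRNPUL2 was lower at 0.476 (0.383 to 0.586). SRSF9 in the 4 erlotinib libraries lay between 207 and 264 CPM, above the 203 of untreated cells and below the 428 of scrambled cells, and its sign in the erlotinib comparison turned to 0.32 without the scrambled library.

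CPI-455 with erlotinib against untreated cells, the pair without virus, had 12 members lower and 1 higher of 29, where 30.4% of all genes were lower and 18.9% higher. The median log2 ratio of the members was -0.27, against -0.16 over all genes. For the members it was -0.53 with cells thinned to 1000 UMIs, where the median over all genes was not taken. HNRNPAB was lower at 0.361 (0.302 to 0.428), HNRNPA2B1 at 0.422 (0.394 to 0.453), SRSF7 at 0.448 (0.342 to 0.579) and SRSF2 at 0.481 (0.391 to 0.587). SRSF5 was at 1.47 (1.29 to 1.66), just inside the 1.5-fold limit, and HNRNPA1 at 1.28 (1.15 to 1.42). HNRNPU-AS1, the antisense RNA at the HNRNPU locus, was the member past the limit, with 31 UMIs against 50 and a ratio of 2.81 (1.73 to 4.48). Whether strand was used in counting is not given in the sources used here, so reads of HNRNPU and HNRNPU-AS1 may not be told apart.

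The transduced erlotinib libraries share the scrambled library as control, and their values are given side by side. KDM5A shRNA had 17 members lower and 0 higher of 28, where 28% of all genes were lower and 21.9% higher. The labelled double-shRNA library also had 17 lower and 0 higher of 28, against 31.9% and 22.6% of all genes, and KDM5A cDNA had 14 lower and 0 higher, against 31.1% and 19.5%. The median log2 ratios of the members were -0.73, -0.81 and -0.60, against -0.08, -0.14 and -0.18 over all genes. HNRNPAB was at 0.299 (0.266 to 0.336), 0.196 (0.160 to 0.237) and 0.216 (0.175 to 0.264) of its scrambled level, in the same order. SRSF7 was at 0.344 (0.278 to 0.424), 0.286 (0.207 to 0.387) and 0.315 (0.225 to 0.434), and HNRNPA2B1 at 0.376 (0.354 to 0.399), 0.306 (0.279 to 0.334) and 0.465 (0.429 to 0.504). SRSF5 was close to its scrambled level in all 3, at 1.05 (0.902 to 1.23), 1.10 (0.908 to 1.32) and 0.955 (0.772 to 1.18).

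Among the erlotinib libraries, KDM5A shRNA was compared with KDM5A cDNA and with the labelled double-shRNA library. Other pairs of them, such as those with CPI-455, were not compared. KDM5A shRNA against KDM5A cDNA had 5 lower and 0 higher of 28, where 12.8% of all genes were lower and 16.3% higher. These were HNRNPA1 at 0.559 (0.484 to 0.646), HNRNPD at 0.593 (0.497 to 0.710), HNRNPC at 0.619 (0.542 to 0.708), SRSF2 at 0.646 (0.513 to 0.816) and HNRNPA3 at 0.661 (0.549 to 0.798). Of these, HNRNPA1, HNRNPA3 and HNRNPC are genes with many copies. All pseudogene UMIs of the HNRNP and SRSF families stood at 89.0 CPM with KDM5A shRNA and 344 with KDM5A cDNA. Intronless copies of all genes also differed, at 1.32% of UMIs with KDM5A shRNA and 3.42% with KDM5A cDNA. With the copies' UMIs added to each gene the ratios were 0.490 for HNRNPA1 (0.429 to 0.558), 0.565 for HNRNPC (0.498 to 0.642) and 0.642 for HNRNPA3 (0.539 to 0.768), and the counts were again 5 lower and 0 higher. The labelled double-shRNA library against KDM5A shRNA had 1 lower and 0 higher, where 7.87% of all genes were lower and 8.45% higher, and the member was HNRNPAB at 0.655 (0.528 to 0.807).

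The rest of the splicing machinery was described by 5 lists that hold no member. Of 17 tested proteins of the U1 and U2 particles and of the Sm and Lsm rings that hold spliceosomal RNAs, 13 fell and 0 rose, with a median log2 fold of -1.03. All 5 LSM genes of the list fell, with a median of -1.53, and 8 of the other 12 fell, with a median of -0.79. SNRPB, a core Sm protein, was at -1.15 (SE 0.20), SNRPF at -1.66 (SE 0.30), SNRPE at -0.76 (SE 0.19) and LSM4, of the Lsm ring, at -1.45 (SE 0.22), with edgeR adjusted p between 0.00135 and 0.0174. Of 37 U2-associated, tri-snRNP and exon junction proteins 15 fell and 1 rose, with a median of -0.56. Among them were the helicase DDX46 at -1.17 (SE 0.23), the splice-site reader U2AF1 at -0.56 (SE 0.18) and the exon junction protein MAGOHB at -1.39 (SE 0.25), and the one that rose was the helicase DDX17 at 0.61 (SE 0.19), with edgeR adjusted p between 0.00334 and 0.046.

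Of 23 SR-related proteins and SR kinases 5 fell and 0 rose, with a median of -0.37. TRA2B, an SR-like activator of exons, had the largest decrease of these at -1.69 (SE 0.22; adjusted p = 0.00063 by edgeR), and the others were PNN at -1.06 (SE 0.22), SRRM1 at -0.96 (SE 0.22), RNPS1 at -0.77 (SE 0.20) and SREK1 at -0.70 (SE 0.22). The SR kinases CLK1, CLK3, CLK4, SRPK1 and SRPK2 did not pass. Of 36 other hnRNP-type and splicing regulators 9 fell and 1 rose, with a median of -0.30. RBM25, a U1-associated regulator, was at -1.22 (SE 0.24) and SYNCRIP, or hnRNP Q, at -0.998 (SE 0.20), with edgeR adjusted p of 0.00645 and 0.00559. Of 11 proteins of nonsense-mediated decay, 1 fell, UPF3B at -1.01 (SE 0.25; adjusted p = 0.0158 by edgeR), and 0 rose, with a median of -0.03. These counts stand beside 13.5% lower and 10% higher over all genes.

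**Figure D5:**
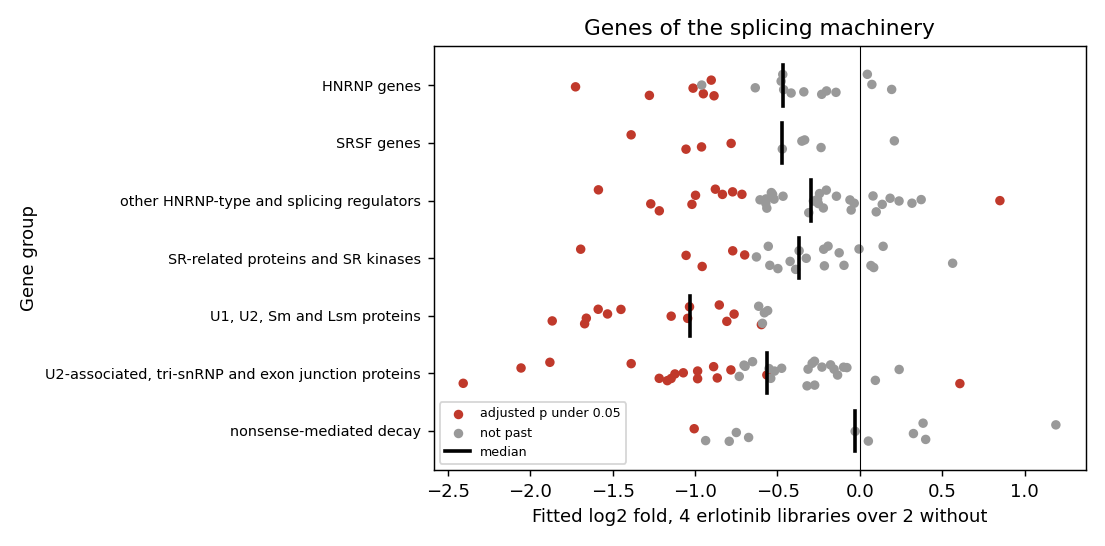
Fitted log2 fold (4 erlotinib libraries over 2 without) of each tested gene in the HNRNP and SRSF families and in 5 lists of splicing and decay proteins, red for an adjusted p under 0.05, with the list median as a black bar. Medians run from -1.03 in the U1, U2, Sm and Lsm proteins to -0.03 in nonsense-mediated decay, with HNRNP and SRSF genes both at -0.47.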

How the data were processed

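The tables deposited by the authors are UMI counts by gene symbol and cell barcode, unnormalized, since all values are whole and libraries differ in total. Per the submitters' processing notes, STAR and FastQC were used with GRCh37.p13, or hg19. Versions and the counting tool are not given in the sources used here. UMIs were summed over kept cells of each library and scaled to 1000000 UMIs (CPM). A count of 0 allows up to 0.758 to 5.08 CPM, at 3 counts, and intervals cover counting error only. edgeR 4.0.16 was fitted to the 6 sums (TMM, filterByExpr, robust quasi-likelihood test, common coefficient of biological variation 0.262), and its standard errors come from the fold and its F statistic. DESeq2 1.42.0 and limma 3.58.1 were alternatives. The scripts were tested on simulated counts. No doublet caller was used on this single line. Motifs used RefSeq promoter sequences.

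Full statistics were meant for the 15 members with the smallest p, the 3 most abundant of each family, and sequence paralogs. Of these, HNRNPUL1, SRSF4 and HNRNPH1 are given with fold and standard error only. HNRNPF, SRSF6 and HNRNPA3 are given within a range of folds. In pairs, up to 6 members a direction past 1.5-fold were to be given, of which the text names part. In the lists the called genes with the most UMIs are named, of which some are not reported here. The motifs, divergent neighbours, within-library ratios, and the HNRNPK, HNRNPL, HNRNPDL, HNRNPA0 and HNRNPLL values were chosen after values were seen. Some values of SRSF5, HNRNPA1 and HNRNPF, which are among the sequence paralogs, were also chosen then. The split of the LSM genes from the rest of their list was not part of this rule. Members and lists were chosen with earlier results of these data known.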

Additional observations from a re-analysis of the deposited data

Results flagged for a closer look

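SRSF6, an SR protein with paired RNA recognition motifs, stood at 71.2 CPM with KDM5A cDNA, apart from the other 3 erlotinib libraries, which lay between 85.4 and 86.4. The gap was 0.933 of the range over the 4 libraries, above Dixon's 95% critical value for 4 samples. The value rests on 42 UMIs, with a 95% counting interval of 51.3 to 96.2 that includes the other 3. It was the 1 flag among 30 members examined, and chance flags about 1 in 20 groups. These 4 libraries also differ by their KDM5 manipulation.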

How the results depend on the processing

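No paired analysis was possible because each condition had 1 library and the labels give no replicate numbers. In 18 alternatives of the erlotinib fit, 0 members were higher and all 10 members that fell stayed below 0. SRSF7, HNRNPA2B1, HNRNPAB, HNRNPR and HNRNPM passed in all 18. Leaving out each library in turn gave 7 to 12 members lower and 0 higher. Over all genes the same gave 500 to 1176 higher and 860 to 1341 lower, against 1046 and 1412, with 500 higher without the untreated library, 639 higher and 860 lower without the scrambled library, and 520 higher and 899 lower without the labelled double-shRNA library. SRSF9 turned from -0.34 to 0.32 without the scrambled library, and ranged down to -0.82 without the untreated one. Cells thinned to 1000 UMIs gave 465 genes higher and 494 lower, with HNRNPF at 0.012, and transduced libraries only gave 479 and 856. The causes were not tested.

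Summed levels moved by more than their counting intervals as follows. With totals that leave out mitochondrial genes, HNRNP sums were 9465 (untreated), 11121 (scrambled), 6785 (CPI-455), 5613 (KDM5A shRNA), 5517 (labelled double-shRNA) and 6944 (KDM5A cDNA) CPM, and SRSF sums 2212, 2576, 1813, 1695, 1586 and 1728. TMM-scaled totals gave 8690.0 (HNRNP) and 2031 (SRSF) in untreated cells and 5356 (HNRNP) with KDM5A shRNA. Thinned cells gave HNRNP sums of 8869.8 (untreated), 5738 (CPI-455) and 5379 (labelled double-shRNA) and an SRSF sum of 1438 (KDM5A cDNA). Adding pseudogene UMIs gave HNRNP sums of 9247 (untreated), 6467 (CPI-455), 5277 (labelled double-shRNA) and 6699 (KDM5A cDNA). In cells without G2/M UMIs, chosen after seeing the data, HNRNP sums were 7635 (untreated), 5627 (CPI-455), 4905 (labelled double-shRNA) and 5719 (KDM5A cDNA), and SRSF sums 1635, 1529, 1679 (KDM5A shRNA), 1357 and 1344. In the first 4 of these alternatives every erlotinib sum lay below both libraries without it. In cells without G2/M UMIs, where the scrambled library was not run, every erlotinib sum but the SRSF sum of KDM5A shRNA lay below untreated cells.

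Counts of members 1.5-fold apart in pairs moved in some alternatives. The shares over all genes were not taken in these alternatives, so the counts do not show a change particular to the members. They moved from 4 to 7 higher for scrambled against untreated with TMM-scaled totals, and from 1 to 3 lower with thinned cells. CPI-455 against untreated had 2 higher without mitochondrial genes and 0 with thinned cells. KDM5A cDNA against scrambled had 1 higher with pseudogenes added. KDM5A shRNA against KDM5A cDNA had 1 higher with thinned cells or cells of at least 1000 UMIs. The labelled double-shRNA library against KDM5A shRNA had 1 higher without mitochondrial genes, with pseudogenes added or with cells of at least 1000 UMIs, and 2 higher with thinned cells, where the median log2 ratio turned from -0.07 to 0.024. Thinned cells also moved the median of the members from -0.27 to -0.53 for CPI-455 against untreated, from -0.73 to -0.58 for KDM5A shRNA against scrambled and from -0.13 to -0.25 for KDM5A shRNA against KDM5A cDNA. Medians over all genes were not taken with thinned cells. Differences between cells with and without cycle UMIs changed sign with the S phase list (log2 -0.039 for HNRNP and -0.0049 for SRSF with CPI-455, -0.045 for SRSF with KDM5A cDNA) and with at least 2 G2/M UMIs (SRSF at 0.075 with KDM5A shRNA and -0.018 with KDM5A cDNA). Every interval of these 5 included 0. Depth limits the members with few UMIs, such as SRSF1 with 23 in the KDM5A cDNA library.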
